A study of Mus musculus with 22 samples.

Results

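Butyrate uptake and fatty acid oxidation in the distal colon were followed through 9 genes, taken as every row of the count table whose gene symbol was Slc16a1, Slc5a8, Acads, Acadm, Acadvl, Cpt1a, Hadha, Acat1 or Pparg. All 9 were present once among the 46078 genes of the table, and all 9 passed the filter on low counts in every comparison. They were measured by RNA sequencing of whole distal colon from 22 mice of both sexes. C57BL/6 mice aged 14 weeks (4 males, 4 females) were the controls. Winnie mice aged 14 weeks (3 males, 4 females) carry a point mutation in Muc2, the gene of the main secreted colonic mucin, and develop colitis without further treatment. Winnie-Prolapse mice (4 males, 3 females) were Winnie mice with a prolapsed rectum aged 18 weeks, so age and prolapse cannot be told apart in this group. The labels name no drug or other agent for any group, and each library came from its own mouse.

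Butyrate is a short-chain fatty acid made by bacterial fermentation of fibre and is known as a main fuel of colonocytes, the absorptive cells of the colon surface. It enters the cell through the monocarboxylate transporter MCT1, encoded by Slc16a1, and the sodium-coupled transporter SMCT1, encoded by Slc5a8. In mitochondria, fatty acids are shortened by β-oxidation, in which acyl-CoA dehydrogenases of different chain-length preference (Acads, Acadm, Acadvl) take the first step, the trifunctional protein (Hadha) later steps on long chains, and thiolases such as Acat1 act on acetoacetyl-CoA, which also links to ketone bodies. Cpt1a loads long-chain fatty acids onto carnitine for import into mitochondria, a step that butyrate does not need, and Pparg encodes a nuclear receptor that fatty acids activate and that is abundant in colonic epithelium.

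The sequences below are the 250 bases before the annotated start site of the 5 genes that were lower in Winnie-Prolapse at an adjusted p under 0.05 (26% of all genes tested were), shown because these genes were lower together. They are from RefSeq on GRCm38.p6, written 5′ to 3′ on the strand of the gene. Capitals mark the letters of 3 motifs on either strand: AGGTCA, the half-site of many nuclear receptors including the PPAR family, GGGCGG, the GC box, and CACGTG, an E-box. No capital stretches of different motifs overlapped in these windows.
Slc16a1 (chr3:104638414-104638663, + strand): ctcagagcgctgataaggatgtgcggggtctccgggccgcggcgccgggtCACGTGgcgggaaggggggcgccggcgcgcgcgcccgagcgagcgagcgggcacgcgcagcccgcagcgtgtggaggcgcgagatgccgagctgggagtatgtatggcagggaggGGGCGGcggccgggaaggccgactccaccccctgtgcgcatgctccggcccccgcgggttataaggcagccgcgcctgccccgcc
Slc5a8 (chr10:88885742-88885991, + strand): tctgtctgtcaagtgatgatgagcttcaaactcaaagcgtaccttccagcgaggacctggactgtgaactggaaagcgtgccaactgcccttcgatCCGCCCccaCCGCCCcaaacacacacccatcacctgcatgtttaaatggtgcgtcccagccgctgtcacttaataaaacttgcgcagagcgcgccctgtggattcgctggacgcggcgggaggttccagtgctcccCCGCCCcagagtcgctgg
Acads (chr5:115119347-115119596, - strand): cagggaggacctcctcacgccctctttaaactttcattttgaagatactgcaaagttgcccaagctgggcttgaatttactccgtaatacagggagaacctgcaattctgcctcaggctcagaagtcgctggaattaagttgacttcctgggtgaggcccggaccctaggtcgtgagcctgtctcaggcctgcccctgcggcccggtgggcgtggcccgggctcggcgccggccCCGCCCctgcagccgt
Acadm (chr3:153944644-153944893, - strand): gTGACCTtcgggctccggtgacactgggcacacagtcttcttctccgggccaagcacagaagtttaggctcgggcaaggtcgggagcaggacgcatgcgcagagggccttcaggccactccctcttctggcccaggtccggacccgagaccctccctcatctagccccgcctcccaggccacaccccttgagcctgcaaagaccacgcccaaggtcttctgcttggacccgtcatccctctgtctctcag
Acadvl (chr11:70015429-70015678, - strand): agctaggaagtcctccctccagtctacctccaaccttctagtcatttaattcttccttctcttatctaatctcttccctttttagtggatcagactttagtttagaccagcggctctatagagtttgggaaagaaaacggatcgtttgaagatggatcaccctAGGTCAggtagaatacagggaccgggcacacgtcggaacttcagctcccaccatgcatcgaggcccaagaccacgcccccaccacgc
The E-box of Slc16a1 began 200 bases before the start site, and its GC box began 85 bases before it. Slc5a8 had 3 GC boxes and Acads 1. The half-site of Acadm lay 249 bases before the start site and that of Acadvl 87 bases before it. RefSeq gave such windows for 8 of the 9 genes, 10 windows in all since Pparg had 3 start sites. AGGTCA was found in 5 of the 10 windows and in 14% of 32851 windows of the same length. GGGCGG was found in 7 of 10 against 32.7%, and CACGTG in 1 of 10 against 6.02%. A pair of half-sites in the same direction 1 base apart, the form that PPAR dimers are known to bind, was in none of the 10 windows and in 0.0335% of all. These matches are letters in a sequence and not measured sites.

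Levels are given as CPM, the deposited counts relative to the library total after TMM scaling, which corrects for libraries in which a few genes take much of the total. Libraries held 24.8 to 36.3 M counts, and the 9 genes had from 787 counts (Pparg in C57BL/6 replicate 4) to 16918 counts (Slc16a1 in C57BL/6 replicate 3), far above the 3 counts that a count of 0 allows, which were 0.0825 to 0.121 CPM. Per kilobase of annotated exon, Slc16a1 had the highest level in C57BL/6 at 95.2 CPM per kb, followed by Slc5a8 at 57.9. Acadvl (40.6), Acads (38.9), Cpt1a (35.7), Acat1 (31.6), Acadm (28.9) and Hadha (26.7 CPM per kb) followed. Among these 6 in this order, neighbours differed by less than the larger of their SDs between mice, apart from Acat1 and Acadm, 2.79 CPM per kb apart with SDs of 1.6 and 2.58. Pparg was the lowest at 14.2 CPM per kb. The length was the union of all annotated exons of a gene, such as 8730 bases for Hadha and 3913 for Acadm. The order per kilobase depends on this choice.

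Several cell type markers moved with the groups, and these values stand beside every result below. A marker was called against C57BL/6 at an adjusted p under 0.001 in edgeR and at least 1.5-fold. In Winnie-Prolapse 8.47% of all genes tested were called lower and 9.84% higher at this limit. In whole tissue, fewer cells of a type and less RNA per cell cannot be told apart. The 8 pan-epithelial markers (such as Epcam and Krt8) summed to 8990 to 11100 CPM in C57BL/6, 9820 to 15100 in Winnie and 9750 to 15800 in Winnie-Prolapse. The 9 surface colonocyte markers (such as Car1, Aqp8 and Krt20) summed to 7120 to 14100 CPM in C57BL/6, 3020 to 12300 in Winnie and 1400 to 8690 in Winnie-Prolapse, where 3 of 9 were called lower. Against C57BL/6, 7 of the 9 log2 fold changes were negative in Winnie and 8 in Winnie-Prolapse. Krt20 went the other way, at 1.07 ± 0.34 (SE; adjusted p = 0.0322, edgeR) in Winnie and 0.87 ± 0.34 (adjusted p = 0.0397, edgeR) in Winnie-Prolapse. Smooth muscle markers fell, with 8 of 8 called lower in Winnie-Prolapse and sums of 6680 to 12200, 2270 to 7230 and 1260 to 3790 CPM in the 3 groups. Leukocyte markers summed to 169 to 498, 431 to 1690 and 1090 to 2320 CPM, with 5 of 8 called higher in Winnie-Prolapse. Squamous epithelium markers reached 3820 CPM in Winnie-Prolapse, against at most 45.8 in C57BL/6, and fat markers stayed at or under 169 CPM in every library. Mean sums of the fat markers were 78.1, 47.8 and 38.1 CPM in the 3 groups, with 1 of 7 tested called lower in Winnie-Prolapse. Of 8 enteric neuron and glia markers, 6 were called lower in Winnie-Prolapse. There 7 of the 8 log2 fold changes were negative, and the highest was 1.04, short of an adjusted p of 0.05 in edgeR. No marker of these lists was at 0 in all libraries of a group. In Winnie-Prolapse replicate 6, 18% of the counts came from 6 milk protein genes. The part of these differences in the results was not tested.

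**Figure D1:**
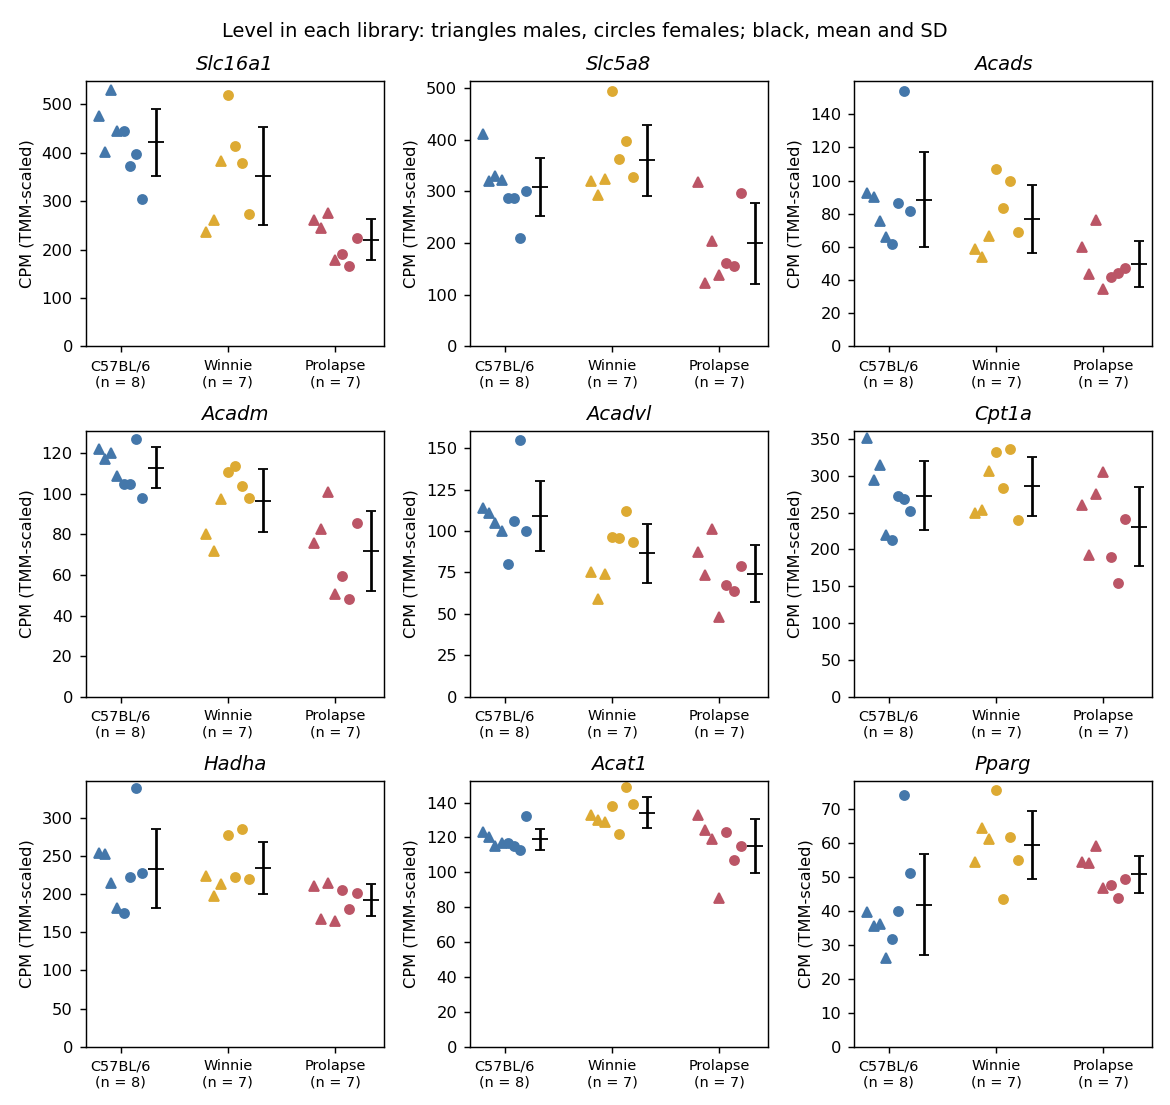
Level of each of the 9 genes in each library (CPM, TMM-scaled, linear axes from 0), with triangles for males, circles for females, and black marks for the mean and SD of each group. All 7 Winnie-Prolapse libraries lay below all 8 C57BL/6 libraries for Slc16a1 only, while Acat1 and Pparg overlapped across the groups.

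The comparison of Winnie-Prolapse with C57BL/6 asked which of these genes differ in the most advanced disease. Slc16a1 fell by 47.8% and was the only gene of the 9 called. Slc5a8, Acads and Acadm were lower at a looser limit, by 35.5% to 44.2%, and Acadvl was lower by 32.1%, short of 1.5-fold. Cpt1a, Hadha, Acat1 and Pparg did not pass either limit. A gene was called at an adjusted p under 0.001 and a change of at least 1.5-fold, and the looser limit was an adjusted p under 0.05 and 1.5-fold. Under the first limit 8.47% of the 17397 genes tested were called lower and 9.84% higher, beside 1 of the 9 lower. Under the second, 17.7% of all genes were lower and 16.7% higher, beside 4 of the 9 lower. The median log2 fold change of the 9 was -0.56 and that of all genes tested -0.01, and 8 of the 9 values were negative.

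Slc16a1 (ENSMUSG00000032902, chr3:104638668-104658462, + strand, GRCm38) encodes the proton-coupled transporter of butyrate, lactate and ketone bodies. Its lowest, median and highest levels were 304, 423 and 530 CPM in C57BL/6, 237, 378 and 519 CPM in Winnie, and 166, 225 and 276 CPM in Winnie-Prolapse. Means were 422 ± 68.9 (SD, n = 8), 353 ± 101 (SD, n = 7) and 221 ± 42.5 CPM (SD, n = 7). Every Winnie-Prolapse library was below every C57BL/6 library, a separation shown by 7.52% of all genes tested, while the Winnie libraries spread over both groups. Against C57BL/6 the log2 fold change in Winnie-Prolapse was -0.94 ± 0.13 (SE), with an adjusted p of 3.45e-05 in edgeR's quasi-likelihood test. The call held when each library was left out in turn, with adjusted p-values of 2.67e-05 to 0.000167. Within males alone the log2 fold change was -0.95 (adjusted p = 0.00412, edgeR) and within females alone -0.96 (adjusted p = 0.00592, edgeR), the same size in both with neither past the limit.

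Slc5a8 (ENSMUSG00000020062, chr10:88885992-88929515, + strand), the sodium-coupled transporter of the apical membrane, ranged from 210 to 412 CPM in C57BL/6 (median 310), from 293 to 495 in Winnie (median 328) and from 123 to 319 in Winnie-Prolapse (median 161). In Winnie-Prolapse, 5 of 7 libraries lay below all C57BL/6 libraries, and replicates 1 and 7, at 319 and 297 CPM, lay within the C57BL/6 range. The log2 fold change was -0.63 ± 0.20 (SE; adjusted p = 0.0138, edgeR). Slc5a8 thus had its highest group mean in Winnie, at 360 ± 68.4 CPM (SD, n = 7), and its lowest in Winnie-Prolapse, at 200 ± 78.3 CPM (SD, n = 7).

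The 3 acyl-CoA dehydrogenases were lower in Winnie-Prolapse to different degrees. Acads (ENSMUSG00000029545, chr5:115110299-115119346, - strand), whose enzyme takes short chains including butyryl-CoA, had a lowest, median and highest level of 61.7, 84 and 154 CPM in C57BL/6 and of 34.6, 44.1 and 76 CPM in Winnie-Prolapse. Its Winnie values were in between, at 54.1, 68.9 and 107 CPM. In Winnie-Prolapse, 6 of 7 libraries were below all C57BL/6 libraries, and the log2 fold change was -0.84 ± 0.20 (SE; adjusted p = 0.00226, edgeR). C57BL/6 replicate 7 held the 154 CPM, and without it the log2 fold change was -0.67 (adjusted p = 0.00197, edgeR).

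Acadm (ENSMUSG00000062908, chr3:153922357-153944632, - strand), the medium-chain enzyme, was tightly grouped in C57BL/6 at 98.1 to 127 CPM (median 113) and more spread in Winnie-Prolapse at 48.2 to 101 CPM (median 75.8). Winnie libraries had 71.9 to 114 CPM (median 98). Its log2 fold change in Winnie-Prolapse was -0.66 ± 0.14 (SE; adjusted p = 0.00118, edgeR), just outside the limit of 0.001, and 6 of 7 libraries lay below all C57BL/6 libraries. Acadvl (ENSMUSG00000018574, chr11:70010183-70015411, - strand), the very-long-chain enzyme, had 80.4 to 155 CPM in C57BL/6 (median 106), 58.9 to 112 in Winnie (median 93.5) and 48 to 101 in Winnie-Prolapse (median 73.4), where 5 of 7 libraries lay below all C57BL/6 libraries. Its log2 fold change was -0.56 ± 0.15 (SE; adjusted p = 0.00551, edgeR). Acadvl overlaps Dvl2 and Mir324 on the opposite strand, and reads of overlapping genes could not be separated here because the strand setting of the counting was not given. The same holds for Hadha with Garem2 and Pparg with Gm44079. Slc16a1 overlaps Gm43581 and Gm43585 on its own strand, where strand does not separate reads.

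Which of these genes passed the strict limit depended on the tool and on single libraries. DESeq2 called Slc16a1, Acads and Acadm lower, with adjusted p-values of 2.51e-10, 0.000301 and 0.000119, and limma-voom called Slc16a1 and Acadm. Without Winnie-Prolapse replicate 3, which had the highest Acads and Acadm levels of its group, edgeR called these 3 genes too. At the looser limit the count of 4 dropped to 2, Slc16a1 and Acads, without Winnie-Prolapse replicate 4 or without replicate 6.

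The genes of long-chain import, the trifunctional protein and the thiolase gave smaller differences. Cpt1a (ENSMUSG00000024900, chr19:3322334-3385733, + strand), which sits at the entry of long-chain fatty acids into mitochondria, had 213 to 351 CPM in C57BL/6 (median 270), 240 to 336 in Winnie (median 284) and 154 to 305 in Winnie-Prolapse (median 242). Its log2 fold change in Winnie-Prolapse was -0.25 ± 0.14 (SE; adjusted p = 0.163, edgeR; 95% interval -0.53 to 0.04). The interval holds no 1.5-fold change in either direction, and the 3 groups overlapped. Without Winnie-Prolapse replicate 6 the log2 fold change of Cpt1a was -0.16 (adjusted p = 0.355, edgeR).

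Hadha (ENSMUSG00000025745, chr5:30118304-30155162, - strand), the α-subunit of the trifunctional protein, had 175 to 339 CPM in C57BL/6 (median 225), 197 to 285 in Winnie (median 222) and 165 to 215 in Winnie-Prolapse (median 201). All 7 Winnie-Prolapse libraries were under the C57BL/6 median, and the log2 fold change was -0.29 ± 0.13 (SE; adjusted p = 0.0673, edgeR). Without C57BL/6 replicate 7, which held the 339 CPM, it was -0.18 (adjusted p = 0.135, edgeR), and over the fits that left out 1 library adjusted p-values were 0.0342 to 0.135. Acat1 (ENSMUSG00000032047, chr9:53580522-53610382, - strand), the mitochondrial acetoacetyl-CoA thiolase, varied least of the 9 in C57BL/6, from 113 to 132 CPM with a mean of 119 ± 6 (SD, n = 8). In Winnie-Prolapse it ranged from 85.4 to 133 CPM (median 119), and the log2 fold change was -0.05 ± 0.08 (SE; adjusted p = 0.62, edgeR; 95% interval -0.20 to 0.11). Acat1 levels in Winnie-Prolapse therefore lay on both sides of the C57BL/6 range.

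Pparg (ENSMUSG00000000440, chr6:115360951-115490399, + strand) was the 1 gene of the 9 with a positive log2 fold change in Winnie-Prolapse. It had 26.3 to 74.3 CPM in C57BL/6 (median 37.9), 43.5 to 75.8 in Winnie (median 61.4) and 43.8 to 59.1 in Winnie-Prolapse (median 49.5). All 7 Winnie-Prolapse libraries were above the C57BL/6 median and below its highest library, replicate 7. The log2 fold change was 0.27 ± 0.18 (SE; adjusted p = 0.209, edgeR). Without C57BL/6 replicate 7 it was 0.46 (adjusted p = 0.00481, edgeR).

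**Figure D2:**
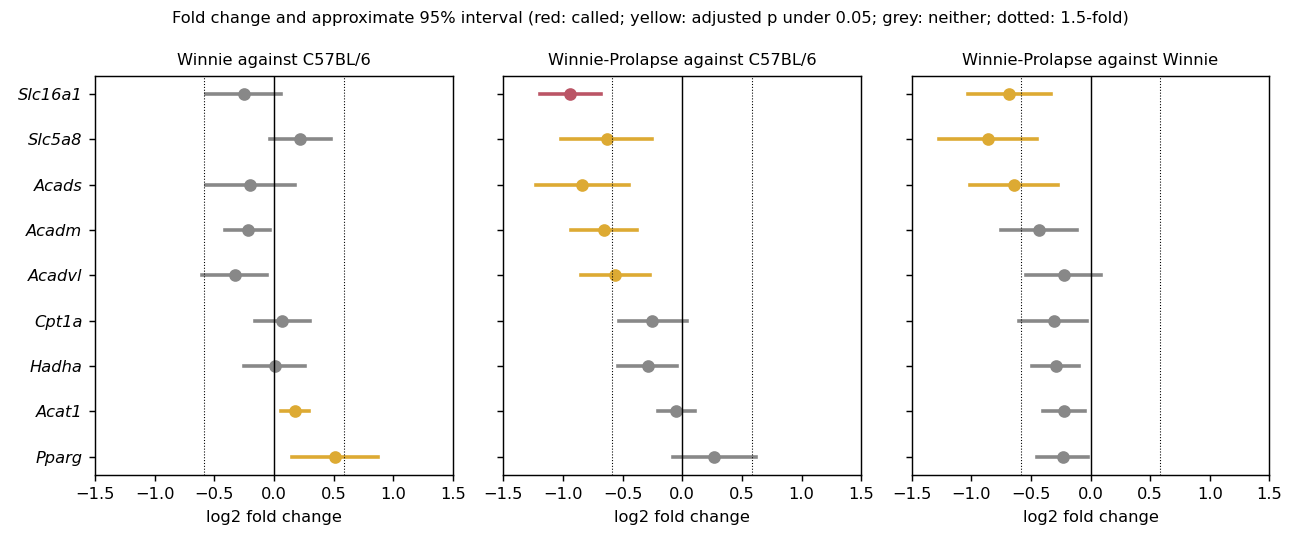
Log2 fold change of each gene in the 3 comparisons, with its approximate 95% interval (horizontal axis, log2 scale). Red marks a called gene, yellow an adjusted p under 0.05 and grey neither, and dotted lines stand at 1.5-fold. Slc16a1 in Winnie-Prolapse against C57BL/6, at -0.94, is the one red value.

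The comparison of Winnie with C57BL/6, at the same age of 14 weeks, asked whether these genes differ in colitis before prolapse. None of the 9 was called in edgeR's quasi-likelihood test, DESeq2 or limma-voom, with 4 of the 9 at an unadjusted p under 0.05 in edgeR, beside 39.9% of all genes. Acat1 and Pparg were higher at an adjusted p under 0.05, by 13% and 42.4%, where 25.7% of the 17289 genes tested passed this limit in either direction. Over all genes, 0.0868% were called higher and 0.00578% lower, and 7.42% were higher and 8.53% lower at the looser limit with 1.5-fold. The median log2 fold change of the 9 was 0.01, and that of all genes -0.01.

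Acat1 had 122 to 149 CPM in Winnie (median 133), above the C57BL/6 median in 7 of 7 libraries and above every C57BL/6 library in 4. Its log2 fold change was 0.18 ± 0.06 (SE; adjusted p = 0.0354, edgeR; 95% interval 0.06 to 0.29). Pparg was above the C57BL/6 median in 7 of 7 Winnie libraries, and the log2 fold change was 0.51 ± 0.18 (SE; adjusted p = 0.0498, edgeR). Neither was stable to the choice of libraries. Both were short of an adjusted p of 0.05 with no filter on low counts, and so were both without C57BL/6 replicate 2, 3, 4, 5 or 6 or Winnie replicate 1, 4, 6 or 7. Over all the fits that left out 1 library, adjusted p-values were 0.0148 to 0.0757 for Acat1 and 0.00416 to 0.0991 for Pparg, and log2 fold changes stayed positive, at 0.15 to 0.20 and 0.43 to 0.68. Over all alternatives run, log2 fold changes were 0.09 to 0.2 for Acat1 and 0.25 to 0.81 for Pparg.

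The log2 fold change of Slc16a1 in Winnie was -0.25 ± 0.16 (SE; adjusted p = 0.252, edgeR), and 3 of 7 libraries lay below every C57BL/6 library. Acadvl (-0.33 ± 0.14; adjusted p = 0.0908, edgeR), Acadm (-0.22 ± 0.10; adjusted p = 0.0985) and Acads (-0.20 ± 0.19; adjusted p = 0.462) were on the same side of 0. Without C57BL/6 replicate 7, Acads was at -0.04 (adjusted p = 0.869, edgeR). Slc5a8 was on the other side, at 0.22 ± 0.13 (SE; adjusted p = 0.215, edgeR), with 6 of 7 libraries above the C57BL/6 median. Leaving out each library in turn gave 0.13 to 0.29 for Slc5a8. Cpt1a (0.07 ± 0.12; adjusted p = 0.676) and Hadha (0.01 ± 0.13; adjusted p = 0.968) were near 0 in edgeR, and their 95% intervals, -0.16 to 0.30 and -0.25 to 0.26, hold no 1.5-fold change.

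Whether the Winnie effect differed between males and females was tested as a sex by group interaction. Male Winnie mice had a mean of 294 CPM of Slc16a1 against 464 in male C57BL/6 mice, and female Winnie mice 396 against 379. For Slc5a8 the means were 313 against 346 CPM in males and 396 against 271 CPM in females. The male minus female effect was -0.71 ± 0.29 for Slc16a1 (SE; adjusted p = 0.21), -0.69 ± 0.21 for Slc5a8 (adjusted p = 0.13) and -0.46 ± 0.16 for Acadm (adjusted p = 0.156) in edgeR. The interaction was negative for 8 of the 9 genes, all but Pparg, and none passed an adjusted p of 0.05 in edgeR, DESeq2 or limma-voom, where 0.247% of all genes did in edgeR. Unadjusted, 3 of the 9 were under 0.05, beside 18.2% of all genes. In males alone, Slc16a1, Acads, Acadm and Acadvl were lower and Pparg higher in Winnie at an adjusted p under 0.05 in edgeR, 5 of 9 beside 30.2% of all genes. In females alone 0 of the 9 passed, beside 0.00579% of all genes. In males these went with lower summed surface colonocyte markers, 3020 to 5740 CPM in the 3 male and 7720 to 12300 CPM in the 4 female Winnie libraries. That part was not tested.

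In the Winnie-Prolapse comparison with C57BL/6, 0 of the 9 genes had an interaction with sex in edgeR, DESeq2 or limma-voom, as for all genes in edgeR (0%), and 1 of the 9, Pparg, had an unadjusted p under 0.05, beside 4.4% of all genes. Its male minus female effect was 0.70 ± 0.31 (SE; adjusted p = 1, edgeR). Male Winnie-Prolapse mice had 53.7 CPM of Pparg against 34.5 in male C57BL/6 mice, and females 47 against 49.3.

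The comparison of Winnie-Prolapse with Winnie asked what goes with prolapse, although age differs too. All 9 log2 fold changes were negative, with a median of -0.31 where that of all genes was 0.01, and Slc16a1, Slc5a8 and Acads were lower at the looser limit, beside 2.72% of the 17041 genes tested lower and 4.27% higher. In edgeR no gene was called at the strict limit, 0% in either direction over all genes. DESeq2 and limma-voom called 0 of the 9, while DESeq2 called some genes outside the 9, such as Emb (1.82; adjusted p = 4.4e-07, DESeq2). Unadjusted, 7 of the 9 were under 0.05 in edgeR, beside 27.8% of all genes.

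Slc5a8 had the largest of these differences, at -0.86 ± 0.21 (SE; adjusted p = 0.0269, edgeR), a decrease of 44.8%, and 5 of 7 Winnie-Prolapse libraries were below every Winnie library. Slc16a1 followed at -0.68 ± 0.18 (SE; adjusted p = 0.0325, edgeR), with 4 of 7 below. Acads was at -0.64 ± 0.19 (SE; adjusted p = 0.0487, edgeR), with 5 of 7 below. These counts rested on single libraries. Without Winnie replicate 3 Slc5a8 alone passed the looser limit, and without Winnie replicate 4, 5 or 6, or Winnie-Prolapse replicate 4, 5 or 6, none of the 9 did. Hadha (-0.29 ± 0.10; adjusted p = 0.0757), Acadm (-0.43 ± 0.16; adjusted p = 0.107), Acat1 (-0.22 ± 0.09; adjusted p = 0.118), Cpt1a (-0.31 ± 0.15; adjusted p = 0.177), Pparg (-0.23 ± 0.11; adjusted p = 0.183) and Acadvl (-0.22 ± 0.16; adjusted p = 0.386) did not pass in edgeR. The comparisons with C57BL/6 and with Winnie share the Winnie-Prolapse libraries.

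Since the genes are known from epithelium, each level was also set against the mean log2 CPM of the epithelial markers of the same library, as a description. Relative to the pan-epithelial markers, 5 of the 9 genes were lower in every Winnie-Prolapse library than in every C57BL/6 library, as were 11.9% of all genes tested on the same ratio. These were Slc16a1, lower by 1.12 on the log2 scale in the mean, Acads by 1, Acadm by 0.87, Acadvl by 0.74 and Hadha by 0.44. Slc5a8 was lower by 0.87, with 5 of 7 libraries below the C57BL/6 range, Cpt1a by 0.44, with 6 of 7, and Acat1 by 0.23, with 3 of 7. Pparg was higher by 0.16. In Winnie the ratio was lower by 0.55 for Slc16a1, 0.45 for Acads, 0.50 for Acadm and 0.60 for Acadvl, and 4 to 6 of 7 libraries were below the C57BL/6 range. It was lower by 0.24 for Hadha, 0.19 for Cpt1a, 0.09 for Acat1 and 0.04 for Slc5a8, with 0 to 3 of 7 libraries below that range, and higher by 0.29 for Pparg. The mean log2 CPM of the pan-epithelial markers was itself higher by 0.26 in Winnie.

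Against the surface colonocyte markers all 9 differences were positive. In Winnie-Prolapse the ratio was higher than in C57BL/6 by 1.63 on the log2 scale for Slc16a1, the smallest difference, and by 2.91 for Pparg, the largest. Acads, Acadm, Acadvl, Cpt1a, Hadha, Acat1 and Pparg were above the C57BL/6 range in 7 of 7 libraries, as were 53.6% of all genes tested on this ratio, and Slc16a1 and Slc5a8 in 6 of 7. The mean log2 CPM of the colonocyte markers was lower by 2.57 in Winnie-Prolapse, while that of the pan-epithelial markers was higher by 0.18.

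**Figure D3:**
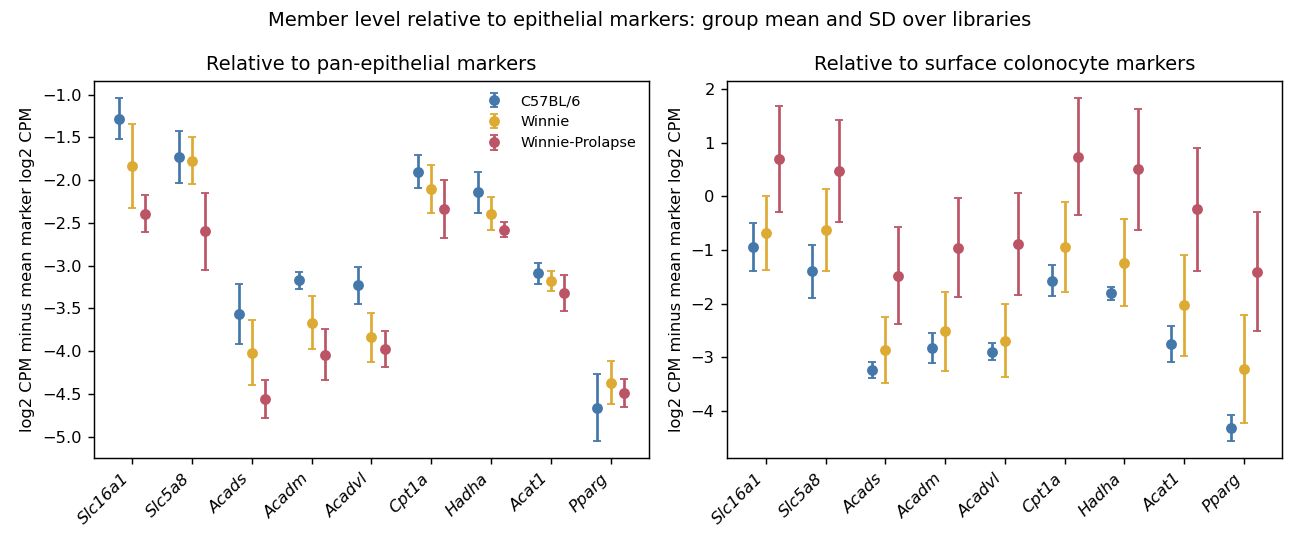
Level of each gene relative to the pan-epithelial markers (left) and to the surface colonocyte markers (right), as log2 CPM minus the mean marker log2 CPM of the library, shown as group mean and SD over 8, 7 and 7 libraries. Slc16a1 was lower by 1.12 in Winnie-Prolapse relative to the first set and higher by 1.63 relative to the second.

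Within groups, the 9 genes varied together in part. Group means were removed from log2 CPM and Pearson's r was taken over the 22 libraries, which share depth and tissue makeup, so the values are descriptive. Of 36 pairs, 34 had a positive r, with a median of 0.43 and a range of -0.11 to 0.91. Acads was closest to Acadvl (0.91) and Hadha (0.89), and Acadm to Acadvl (0.79) and Slc16a1 (0.77). The pair of transporters had 0.51. Slc5a8 and Pparg had the lowest value, -0.11, and Cpt1a and Acat1 had -0.10.

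**Figure D4:**
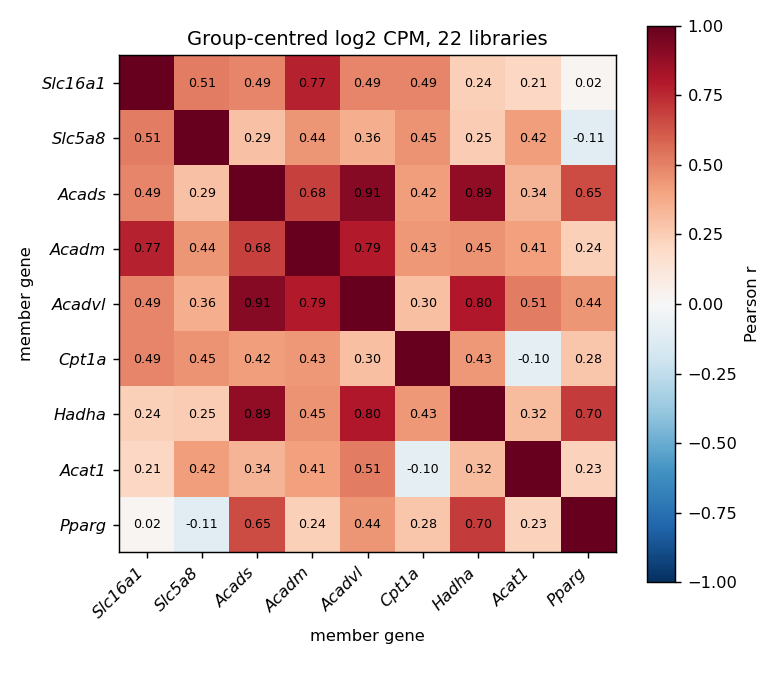
Pearson's r between the 9 genes over 22 libraries after removing group means from log2 CPM (colour scale from -1 to 1, value in each cell). Acads with Acadvl has the highest value, 0.91, and Pparg with Slc5a8 the lowest, -0.11.

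The genes nearest to each member by the same measure were taken from 10732 genes of sufficient level. Acadvl was closest to Ech1, a β-oxidation enzyme (r = 0.971, Spearman's rho = 0.955), and then to Etfb, the electron acceptor subunit for acyl-CoA dehydrogenases (r = 0.938). Acads was closest to Ethe1, a mitochondrial sulfide-detoxifying enzyme (r = 0.934, rho = 0.906), and without the 2 libraries farthest in Acads r was 0.891. Acadm was closest to Cmbl (r = 0.931, rho = 0.923), with Hadh, the short-chain hydroxyacyl-CoA dehydrogenase, second (r = 0.917). Hadha was closest to Acads (r = 0.888, rho = 0.868).

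Slc16a1 was closest to Rmnd5a (r = 0.876, rho = 0.814), Slc5a8 to Dram2 (r = 0.887, rho = 0.844) and Cpt1a to Tet2 (r = 0.782, rho = 0.791). Acat1 was closest to Nudt2 (r = 0.844, rho = 0.8) with Fh1, the fumarate hydratase of the citric acid cycle, second (r = 0.828), and the latter was 0.594 without the 2 libraries farthest in Acat1. Pparg was closest to Snx7 (r = 0.805, rho = 0.697), which dropped to 0.601 without C57BL/6 replicates 7 and 4.

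The wider pathways were counted in 9 lists, described here for Winnie-Prolapse against C57BL/6, where 9.84% of all genes tested were called higher and 8.47% lower. For short-chain fatty acid transport and receptors, 3 of 11 genes tested were called higher and 2 lower, with a median log2 fold change of -0.18. Emb, encoding an accessory protein of monocarboxylate transporters, rose by 2.58 ± 0.23 (SE; adjusted p = 7.89e-07, edgeR) from a mean of 3.69 to 22.1 CPM. Hcar2, the receptor of butyrate and β-hydroxybutyrate that immune cells also carry, rose by 4.43 ± 0.52 (adjusted p = 7.48e-06, edgeR) from 0.403 to 8.76 CPM. Slc16a3, the lactate exporter MCT4, rose by 1.47 ± 0.26 (adjusted p = 0.00026, edgeR).

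On the lower side of this list stood Ffar3, a short-chain fatty acid receptor, at -2.57 ± 0.49 (adjusted p = 0.00046, edgeR), with a mean of only 1.23 CPM in C57BL/6. Slc26a3, the apical chloride-bicarbonate exchanger, was at -2.55 ± 0.51 (adjusted p = 0.000714, edgeR), from 2560 to 440 CPM, and its call was lost in 12 of the 15 fits that left out 1 library, with adjusted p-values up to 0.00206. Bsg, encoding basigin, the chaperone of MCT1, was at -0.18 ± 0.17 (adjusted p = 0.383, edgeR). Slc16a3 and Ffar3 were named after their values were seen.

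Among genes of fatty acid uptake and activation, 2 of 14 were called higher and 2 lower, beside 9.84% and 8.47% of all genes, with a median of -0.67. The acyl-CoA synthetases Acsl5 (0.93 ± 0.08; adjusted p = 4.41e-07) and Acsl4 (1.32 ± 0.13; adjusted p = 1.45e-06) rose, and Acsl3 (-1.02 ± 0.20; adjusted p = 0.00068) and the fatty acid transporter Slc27a1 (-0.86 ± 0.12; adjusted p = 4.25e-05) fell in edgeR. The call of Acsl3 was lost in 13 of those 15 fits, with adjusted p-values up to 0.00261. Acsm3, a medium-chain acyl-CoA synthetase, was at -0.86 ± 0.26 (adjusted p = 0.0102, edgeR). Slc27a1 was named after its value was seen.

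In the carnitine shuttle 0 of 9 genes were called in edgeR, DESeq2 or limma-voom, with 7 of 9 at an unadjusted p under 0.05 in edgeR, beside 58.5% of all genes, and a median of -0.30. At the looser limit 2 of the 9 were higher and 3 lower, beside 16.7% and 17.7% of all genes. The carrier Slc25a20 was at -0.79 ± 0.26 (adjusted p = 0.0198, edgeR), the muscle-type Cpt1b at -1.30 ± 0.41 (adjusted p = 0.0159), Mlycd at -0.35 ± 0.10 (adjusted p = 0.00591) and Cpt2 at -0.10 ± 0.14 (adjusted p = 0.545). Acacb (1.45 ± 0.48; adjusted p = 0.0199, edgeR) and Acaca (0.74 ± 0.26; adjusted p = 0.0248, edgeR) went the other way. Both were named after their values were seen, and both overlap genes on the opposite strand. Smooth muscle markers were lower in the same libraries as Cpt1b, and their part was not tested.

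In mitochondrial β-oxidation, a list without the members, 1 of 17 genes was called higher and 2 lower, near the 9.84% and 8.47% of all genes. Of the 17 values 15 were negative, beside 8835 of 17397 over all genes, and the median was -0.37. Acad12 (-1.43 ± 0.22; adjusted p = 7.06e-05) and Acaa2, the medium-chain thiolase (-0.97 ± 0.19; adjusted p = 0.000567), fell in edgeR. Acadl, the long-chain acyl-CoA dehydrogenase, went the other way, at 0.68 ± 0.08 (adjusted p = 9.41e-06, edgeR), and was already at 0.52 ± 0.12 in Winnie (adjusted p = 0.00879, edgeR). Its C57BL/6 libraries had 118 to 164 CPM and its Winnie-Prolapse libraries 197 to 282 CPM, so that Acadl and its relatives Acads, Acadm and Acadvl lay on opposite sides of 0. Hadh was at -0.61 ± 0.15 (adjusted p = 0.00358, edgeR). Acaa2 was named after its value was seen. Acadl overlaps Gm15793 and Gm27934 in the annotation.

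In peroxisomal β-oxidation 1 of 13 genes was called, Acaa1a, lower at -1.02 ± 0.12 (adjusted p = 1.03e-05, edgeR), with a list median of -0.04. Ehhadh was at -0.48 ± 0.14 (adjusted p = 0.0103, edgeR) and Abcd3 at 0.02 ± 0.22 (adjusted p = 0.94). Acaa1a overlaps Myd88 and Slc22a14 on the opposite strand.

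Of 8 genes of ketone body synthesis and use, 1 was called, and the median was -0.31. Acat2, the cytosolic thiolase that also serves sterol synthesis, rose by 1.02 ± 0.15 (adjusted p = 4.69e-05, edgeR) from 35 to 71.2 CPM, and was at 0.84 ± 0.14 in Winnie (adjusted p = 0.00236, edgeR). Hmgcs1, of sterol synthesis, was at 0.44 ± 0.20 (adjusted p = 0.0756, edgeR) and Oxct1, which uses ketone bodies, at -0.35 ± 0.23 (adjusted p = 0.204) in Winnie-Prolapse.

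Of 15 PPAR regulators and targets, 4 were called lower, beside 8.47% of all genes, with a median of -0.31 and 9 at an unadjusted p under 0.05 in edgeR, near the 58.5% of all genes. Ppara, the receptor that drives fatty acid oxidation genes in liver, fell by 1.56 ± 0.21 (adjusted p = 2.74e-05, edgeR), from 6.29 ± 2.16 (SD, n = 8) through 3.89 ± 1.32 (SD, n = 7) to 2.14 ± 0.436 CPM (SD, n = 7) in the 3 groups. Pparg was on the other side of 0 but passed neither limit, and in females alone it was at -0.07 (adjusted p = 0.862, edgeR). The coactivators Ppargc1a (-1.48 ± 0.30; adjusted p = 0.000694) and Ppargc1b (-0.96 ± 0.16; adjusted p = 0.000164) and the glucose-uptake regulator Txnip (-0.99 ± 0.17; adjusted p = 0.000216) fell in edgeR, and Ucp2 was at 0.02 ± 0.11 (adjusted p = 0.88). Angptl4 went the other way, at 1.6 ± 0.43 (adjusted p = 0.00556, edgeR), higher at the looser limit. DESeq2 called 1 gene of this list higher and 4 lower. Ppargc1a and Angptl4 were named after their values were seen.

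Of 18 glycolysis and lactate genes, 6 were called higher, beside 9.84% of all genes, and 0 lower, with a median of 0.28. DESeq2 and limma-voom also called 6 higher and 0 lower. The other 12 were not called, and 4 of the 18 values were negative. Unadjusted, 10 of 18 were under 0.05 in edgeR, near the 58.5% of all genes. Hk3, the hexokinase of myeloid cells, rose by 3.36 ± 0.36 (adjusted p = 3.96e-06, edgeR) and Pfkfb3, which makes an activator of glycolysis, by 2.41 ± 0.34 (adjusted p = 3.46e-05). The most abundant genes of the list, Aldoa (0.15 ± 0.14; adjusted p = 0.358) and Pkm (0.30 ± 0.12; adjusted p = 0.0431), were not called. Leukocyte markers were higher in the same libraries, and their part was not tested.

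In the citric acid cycle and respiratory chain 0 of 23 genes were called in edgeR, DESeq2 or limma-voom, 7 of 23 had an unadjusted p under 0.05 in edgeR, beside 58.5% of all genes, and values ran from -0.39 to 0.28 with a median of -0.13. Atp5b was at 0.10 ± 0.10 (adjusted p = 0.415, edgeR), Atp5a1 at 0.17 ± 0.10 (adjusted p = 0.169), Mdh2 at 0.28 ± 0.09 (adjusted p = 0.0214) and Tomm20 at -0.24 ± 0.08 (adjusted p = 0.019). No value of this list reached 1.5-fold in either direction.

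**Figure D5:**
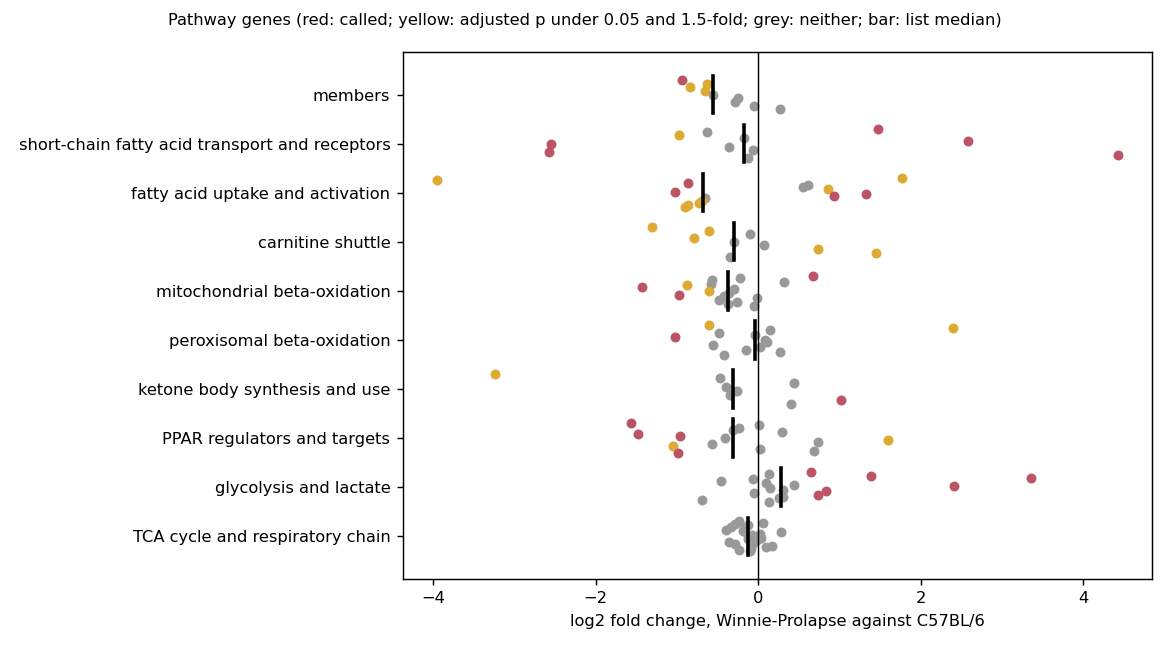
Log2 fold change in Winnie-Prolapse against C57BL/6 of each tested gene of the 9 members and of 9 pathway lists (horizontal axis, log2 scale), with a bar at the median of each list. Red marks called genes, yellow genes past an adjusted p of 0.05 and 1.5-fold, and grey the others. The members have a median of -0.56, glycolysis and lactate genes 0.28, and the citric acid cycle and respiratory chain list -0.13.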

How the data were processed

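RNA of distal colon was poly(A) selected by the authors and sequenced as stranded paired-end libraries. Reads were run through RNAsik on GRCm38 and counted per gene with featureCounts, and the submitters' processing notes also name STAR and limma, without versions. The deposited counts are whole numbers and were not normalized, and cover 46078 genes in 22 libraries. The annotation release and the strand setting of the counting are not given in the sources used here, so antisense and overlapping genes are uncertain, among the named genes also Acsl5, Acsm3, Aldoa, Atp5a1, Ehhadh, Emb, Fh1, Hk3, Hmgcs1, Oxct1, Pfkfb3, Ppargc1a, Ppargc1b, Txnip and Ucp2 (opposite strand) and Abcd3, Acsl3, Atp5b, Cpt1b, Etfb, Pkm, Slc26a3 and Tomm20 (same strand). The labels and the methods differ on whether mice had free access to food. Groups and sexes came from the labels. Replicate numbers follow the sample list, no batch is named, and p-values measure the spread between these mice.

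The group tests used edgeR 4.0.16 under R 4.3.3 (quasi-likelihood F test, TMM, filterByExpr, 2 groups per fit, no covariate, Benjamini-Hochberg adjustment over all genes tested), at the study's limits of an adjusted p under 0.001 and 1.5-fold. SE was the log2 fold change divided by the root of F, and intervals are approximate. Log2 CPM had a prior count of 2. The interaction of sex and group was tested at an adjusted p under 0.05. The limit of 3 counts covers counting error only, as PCR copies of a molecule were counted as reads. Gene positions and exon lengths came from GENCODE M21, matched by identifier for 206 of 207 list genes. Libraries of a group differed by a chi-square of at least 28.8 per degree of freedom, so none was taken as a duplicate. The test was checked on simulated data.

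The members and lists were chosen with earlier results of these data known. Named genes were the 9 members, the 3 nearest genes of each by correlation (average log2 CPM of at least 3), and from each pathway list the 2 most abundant and the 2 of smallest adjusted p in Winnie-Prolapse against C57BL/6. Some genes that this rule names are not reported here. The alternatives were no TMM factors, DESeq2 1.42.0, limma-voom 3.58.1, no filter, a minimum of 10 counts per library, a term for sex, a joint fit of the 3 groups, males or females alone, other limits, other markers and leaving out each library. Counts at the looser limits under these alternatives were added after seeing the data.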

Additional observations from a re-analysis of the deposited data

Results flagged for a closer look

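In 51 checks for a library far from the others of its group, 5 stood out, where chance gives about 1 in 20 (5%). Of 27 checks on the 9 genes, 2 stood out, both in C57BL/6 replicate 7, with Acads at 154 CPM and Acadvl at 155 CPM. The same library had the highest summed smooth muscle markers of its group, 12200 CPM, squamous markers, 45.8 CPM, surface colonocyte markers, 14100 CPM, fat markers, 169 CPM, and enteric neuron and glia markers, 172 CPM. Their part in the values of Acads and Acadvl was not tested. Without it the log2 fold change in Winnie-Prolapse against C57BL/6 was -0.67 for Acads and -0.46 for Acadvl. In Winnie-Prolapse replicate 6 the milk protein genes summed to 215000 CPM, and without this library Slc16a1 was at -0.87 (adjusted p = 0.000114, edgeR).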

How the results depend on the processing

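For Winnie-Prolapse and C57BL/6, 1 of the 9 was called by edgeR, 3 without TMM factors, 3 by DESeq2, 2 by limma-voom, 2 with all 3 groups in one fit, 0 in males alone, 0 in females alone and 4 at an adjusted p under 0.05 and 1.5-fold. Leaving out each library in turn gave 1 to 3, and 2 to 5 at the looser limit. Against Winnie, 0 were called and 3 passed the looser limit, 1 with sex as a covariate, 0 in males alone, 4 in females alone and 0 to 3 without each library. In Winnie against C57BL/6, 0 were called under every alternative run. The 2 genes at an adjusted p under 0.05 there became 0 with no filter, 0 with at least 10 counts in every library, 1 with all 3 groups in one fit, 5 in males alone, 0 in females alone and 0 to 3 without each library. The causes of these moves were not tested. Shares of all genes were given only for the main fits and for 1 sex in Winnie against C57BL/6. For the other alternatives the counts describe the 9 genes alone. Fits of 1 sex hold fewer samples. The counts of genes with a sex interaction stayed at 0 under each alternative run.

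Some values near 0 changed sign. In Winnie against C57BL/6, Cpt1a was at -0.01 without TMM factors and -0.13 in males. Hadha was at -0.08 without TMM factors, -0.04 with at least 10 counts, -0.01 with sex as a covariate, -0.09 in males and -0.04 to 0.10 without each library, 0 without C57BL/6 replicate 6. Slc5a8 was at -0.14 in males and Slc16a1 at 0.05 in females. In Winnie-Prolapse against C57BL/6, Pparg was at -0.07 in females, Acat1 at -0.11 to 0.02 without each library, Cpt2 at 0.02 in males and -0.17 to 0.01 without each library, Abcd3 at -0.03 without TMM factors, -0.10 in females and -0.03 to 0.28 without each library, and Ucp2 at -0.05, -0.10 and -0.05 to 0.09. Against Winnie, Acadvl was at 0.16 in males. Of the ratios to epithelial markers, 18 of 18 moved with surface colonocyte markers in place of pan-epithelial markers.

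No paired analysis was possible because the replicate numbers follow the sample list and pair no animals. Without TMM factors the median of all genes moved by -0.08, -0.07 and 0.01 in the 3 comparisons. Libraries held 24.8 to 36.3 M counts, at which each of the 9 genes had at least 787 counts. Winnie-Prolapse mice also differ from the other groups in age, which cannot be told apart from prolapse.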
